A study of Mus musculus with 15 samples.

Results

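Liver RNA in 15 libraries, all those of the series, was used to ask whether the difference between Aldh2-/- and wild-type (WT) livers depended on diet. The groups were Aldh2-/- on an ethanol diet (n = 4), WT on an ethanol diet (n = 5), Aldh2-/- on a pair-fed control diet (n = 3) and WT on a pair-fed control diet (n = 3). For each gene, the interaction contrast was the genotype difference under ethanol minus the genotype difference under pair-feeding, on log2(FPKM + 1). FPKM is a fragment count scaled for gene length and library size. A positive contrast therefore means that Aldh2-/- stood higher against WT under ethanol than under pair-feeding, and a negative contrast the reverse. Of 23509 genes in the tables, 11157 had a mean of at least 0.5 FPKM over all libraries and were tested.

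All mice were male, on the C57BL/6 strain by the labels, and given as 8 to 10 weeks old, without saying at which point of the experiment. The Aldh2-/- mice came from a supplier's knockout line, and no tissue limit of the deletion is given. By the sample annotation every group also received carbon tetrachloride (CCl4), which injures hepatocytes and, given repeatedly, scars the liver, 2 times per week for 8 weeks, and livers were taken 24 h after the final injection. In the sample titles CCl4 appears for ethanol-fed mice alone. If the titles were right, diet and CCl4 could not be told apart in the contrast. The labels number the libraries but do not say that each came from a separate mouse, so the p-values measure the spread between these libraries, which may be technical. In whole liver, fewer cells of a type and less RNA per cell cannot be told apart.

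Aldh2 encodes a mitochondrial aldehyde dehydrogenase, which oxidises the acetaldehyde made from ethanol by alcohol dehydrogenase and CYP2E1. Its substrate is thus supplied by the diet in the ethanol groups, while lipid peroxidation gives it other aldehydes on any diet. Hepatocytes make cholesterol, fatty acids, plasma proteins and urea, and their enzymes respond to sterols, insulin, fasting hormones and unfolded protein. Stellate, endothelial and Kupffer cells make up most of the rest of the liver and lay down, line and clear the scar in fibrosis.

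The libraries carried 509194 to 624277 summed FPKM, and their relative depth, read from the smallest steps between low values, ran from 90.0% to 111.0% of the mean. Total counts were not analysed here, so no counting interval is given. Hepatocyte markers were high in every library (Alb at 33370 FPKM or more). Of genes of other organs, the muscle gene Ckm ran from 0 to 9.62 FPKM (median 0) and the pancreas genes Cpa1 from 0 to 2.15 and Cela1 from 4.82 to 13.1. Of the gut genes, Fabp2 ran from 31.4 to 189 (median 80.7) but Vil1 only from 0.035 to 0.19. The 13 mitochondrially encoded genes took 15.2% to 24.2% of summed FPKM in pair-fed WT livers and 6.90% to 10.8% in pair-fed Aldh2-/- livers. Under ethanol the shares were 6.68% to 13.6% in WT and 7.83% to 18.2% in Aldh2-/-. The share moved with the groups, and its part in the results was not tested. Each contrast was therefore computed as deposited and after median-ratio rescaling, which applies 1 factor per library (0.84 to 1.15). Each diet was deposited as its own table. A fixed fold offset of a gene between the tables cancels in the contrast where its levels lie well above the added 1 FPKM. For low genes it cancels only in part. Levels set side by side across diets below also compare tables.

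Aldh2 itself, at chromosome 5, 121566027-121593824, minus strand (GENCODE vM21, GRCm38), stood at 277, 309 and 284 FPKM in pair-fed WT livers and 6.77, 6.90 and 6.57 in pair-fed Aldh2-/- livers. Under ethanol it stood at 544, 651, 605, 688 and 685 in WT and 10.7, 10.4, 11.5 and 8.82 in Aldh2-/-. The genotypes were far apart in both diets, as the labels say, and WT livers on ethanol held the most transcript. The genotype difference was -5.81 under ethanol (exact two-sided permutation test, p = 0.00794) and -5.23 under pair-feeding (exact p = 0.10, the smallest that 3 against 3 libraries can give). Its contrast was -0.58 ± 0.15 (SE; limma adjusted p = 0.00949) as deposited and -0.39 (adjusted p = 0.116) after rescaling, so the call was lost on rescaling.

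The genotype effect differed between diets for a large share of genes. At a Benjamini-Hochberg adjusted p under 0.05 in a joint limma fit of all groups, 4134 of 11157 genes were called in the interaction as deposited (37.1%). Of these, 899 were positive (8.06% of genes tested) and 3235 negative (29.0%). After rescaling, 3160 of 11129 genes were called (28.4%), 1379 positive (12.4%) and 1781 negative (16.0%). The median contrast over all genes was -0.22 as deposited and -0.07 after rescaling, and the split between positive and negative calls moved with it. Calls on both scales, with the same sign on each, were reached by 2675 genes (24.0%), 894 positive (8.01%) and 1781 negative (16.0%). They made up 64.7% of the calls as deposited and 84.7% of those after rescaling, and the genes named below were called on both scales unless stated. Counts of list members below are to be read beside these shares of all genes.

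Sorted by where the genotype difference itself was called, the interaction genes fell into a few patterns. In the same fit, 38.9% of genes were called for genotype under ethanol, 22.0% higher and 16.9% lower in Aldh2-/- (42.2%, 18.0% and 24.2% after rescaling). Under pair-feeding 33.3% were called, 30.9% higher and 2.35% lower (10.2%, 5.25% and 4.92% after rescaling). As deposited, the libraries of the genotypes did not overlap for 27.0% of genes under ethanol and 48.0% under pair-feeding. These shares cannot be compared between diets, because 3 against 3 libraries separate more readily by chance than 4 against 5. The same limit holds for single genes below, and overlap was not computed after rescaling. Of the 4134 interaction genes as deposited, 1437 were called only under pair-feeding and higher in Aldh2-/-, 891 only under ethanol and lower, and 737 only under ethanol and higher. Opposite differences, called in both diets, were found for 645 genes, of which 612 were lower in Aldh2-/- under ethanol and higher under pair-feeding. After rescaling, most of the 3160 interaction genes were called only under ethanol, 1207 lower and 990 higher. The opposite class then held 191 genes, and those called only under pair-feeding were 210 higher and 178 lower. The size of the pair-feeding-only and opposite classes thus rested on the scaling, while the ethanol-only classes were large on both scales. A difference that was not called is not shown to be absent. The median SE of the genotype difference was 0.12 under ethanol and 0.15 under pair-feeding on each scale, so smaller differences could be called under ethanol. The part of this in the class sizes was not tested.

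**Figure D1:**
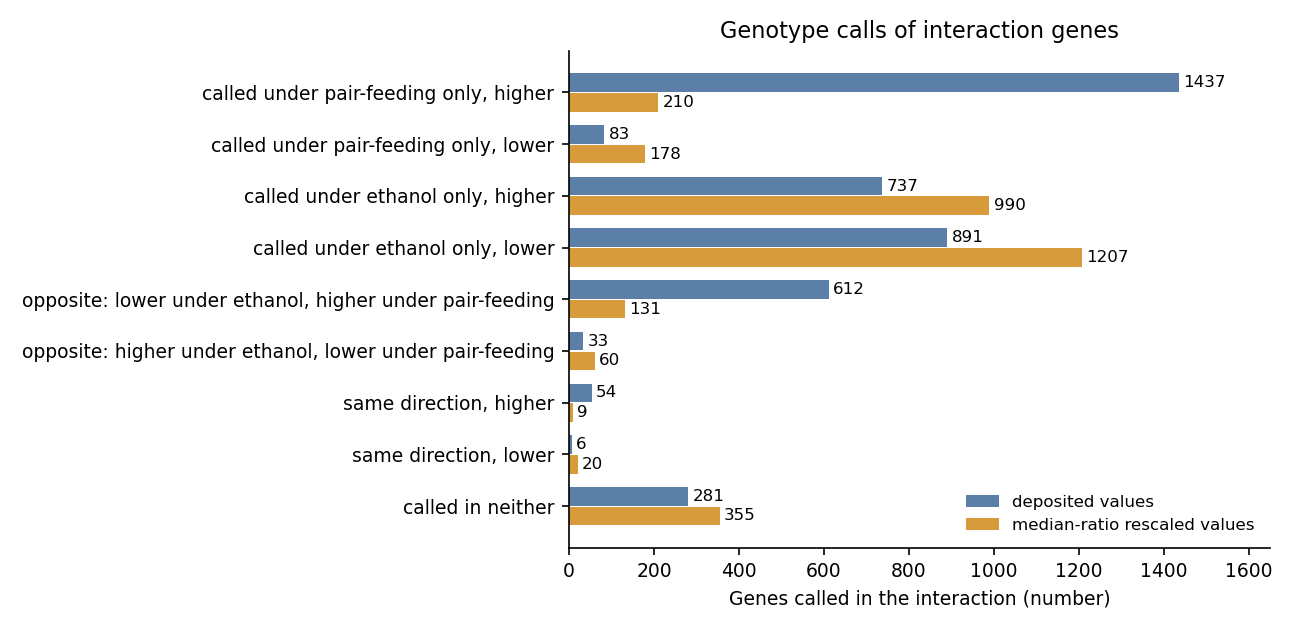
Number of genes called in the interaction (x axis) by where the genotype difference was called (y axis), for deposited values (blue, 4134 genes) and median-ratio rescaled values (orange, 3160 genes). The class called only under pair-feeding and higher shrank from 1437 to 210 genes on rescaling, while ethanol-only genes rose from 891 and 737 to 1207 and 990.

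Across genes, the genotype differences in the 2 diets had little relation to each other. Pearson's r was 0.05 over 11157 genes as deposited and 0.09 over 11129 genes after rescaling, and 51.5% and 47.7% of genes had the same sign. Genes are not independent replicates, and each value shares its library depth and scaling with all others in that diet. The genes called on both scales were sorted by the sign of the contrast. That alone favours ethanol Aldh2-/- or pair-fed WT as highest among positive genes and lowest among negative ones. The shares below thus describe selected genes and test nothing. Among the 894 positive genes, the highest rescaled group mean was that of ethanol Aldh2-/- livers for 765 (85.6%) and of pair-fed WT for 112 (12.5%). The lowest was that of pair-fed Aldh2-/- livers for 476 (53.2%). Among the 1781 negative genes, ethanol Aldh2-/- livers were lowest for 1213 (68.1%), and the highest group was ethanol WT for 875 (49.1%) or pair-fed Aldh2-/- for 820 (46.0%).

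**Figure D2:**
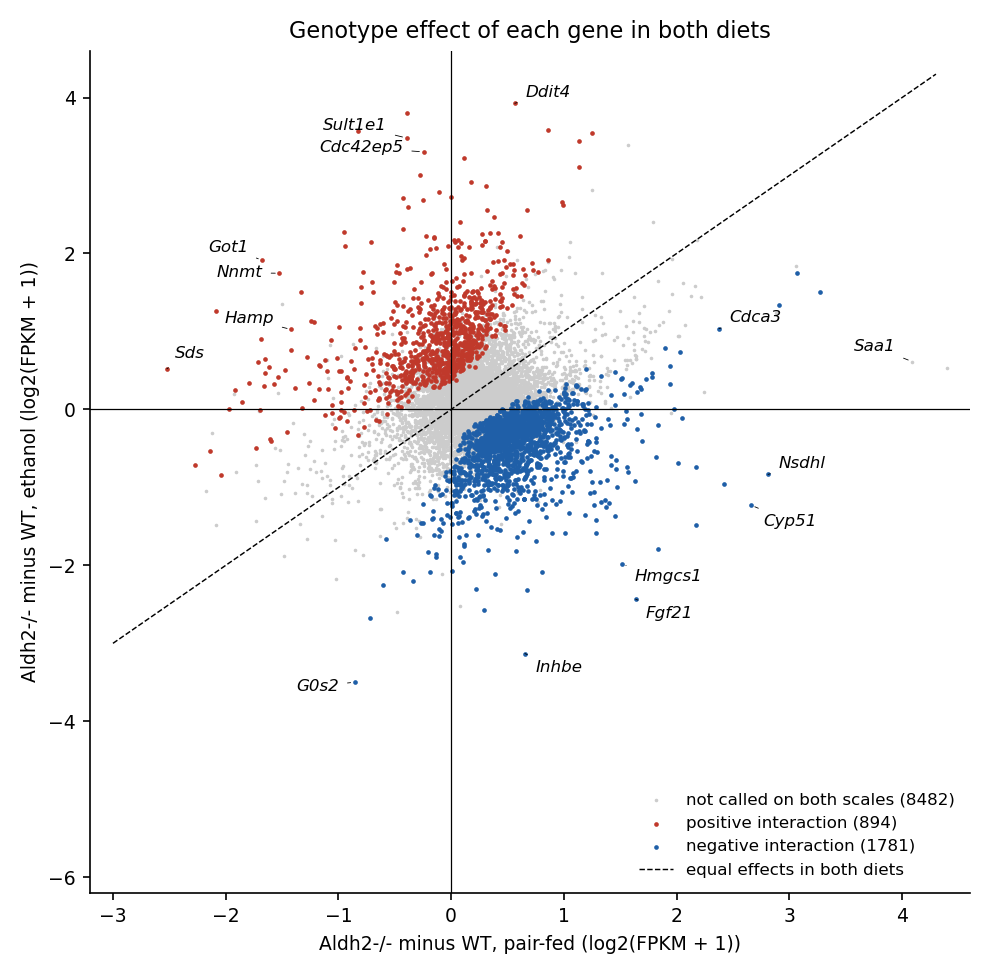
Genotype difference (Aldh2-/- minus WT, log2(FPKM + 1), deposited values) of each gene under pair-feeding (x axis) and ethanol (y axis). Red points are the 894 positive and blue points the 1781 negative genes called on both scales, and Aldh2 lies outside the axes. Blue points fill the lower right, where cholesterol genes and Fgf21 lie, and red points sit mainly above 0 on the ethanol axis.

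The cholesterol synthesis genes showed the most negative median contrast of all 48 lists. The pathway builds cholesterol from acetyl-CoA through mevalonate and squalene, and its genes are switched on together by SREBP-2 when sterols in the endoplasmic reticulum run low. Of 22 members tested, 21 were negative as deposited and 20 on both scales, and none was positive. The exceptions were Ggps1, a branch enzyme of isoprenoid synthesis, and Lbr, which was called as deposited only. Both were named after their values were seen. The list's median contrast was -2.30 as deposited and -2.12 after rescaling, beside -0.22 and -0.07 over all genes. Under pair-feeding 20 of 22 members were higher in Aldh2-/- (13 after rescaling), and under ethanol 16 were lower (18 after rescaling).

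The promoters of these genes are shown because the list moved together and its regulators bind known letters. Sequences are from RefSeq (GRCm38.p6), cover only bases before the gene's start and are outside exons of GENCODE vM21. The sterol response element core TCACNCCAC, searched on both strands in 250 bases before the start, was found in 1 of 17 members with a promoter, Hmgcs1, and in 1.36% of 8889 tested genes. The CCAAT box, CCAAT on either strand, bound by NF-Y, was found in 16 of 17 members (94.1%) beside 40.3% of tested genes. Capitals mark the element, and ATTGG is CCAAT read on the other strand.
Hmgcs1 (chr13:119690174-119690262, plus strand, sterol response element core): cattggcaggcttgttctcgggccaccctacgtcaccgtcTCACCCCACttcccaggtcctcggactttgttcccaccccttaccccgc
Nsdhl (chrX:72918461-72918520, plus strand, CCAAT box): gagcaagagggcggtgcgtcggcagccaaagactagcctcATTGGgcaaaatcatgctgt
Sc5d (chr9:42264301-42264364, minus strand, CCAAT box): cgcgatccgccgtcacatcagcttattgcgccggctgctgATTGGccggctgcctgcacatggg
The element of Hmgcs1 began 137 bases before the start, and the CCAAT boxes shown for Nsdhl and Sc5d began 20 and 24 bases before it.

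Hmgcs1 (chromosome 13, 119690379-119708260), the cytosolic synthase of the first committed steps, stood at 32.3, 23.8 and 21.1 FPKM in pair-fed WT and 84.0, 93.7 and 51.9 in pair-fed Aldh2-/- livers. Under ethanol it stood at 37.5, 53.1, 16.3, 30.0 and 24.7 in WT and 5.97, 5.35, 7.22 and 9.29 in Aldh2-/-. The genotypes did not overlap in either diet and lay in opposite order, with ethanol Aldh2-/- livers below all other libraries. Its contrast was -3.50 ± 0.43 (SE; adjusted p = 1.00e-04), from 1.51 under pair-feeding and -1.99 under ethanol. Sc5d, a late sterol desaturase, had the smallest p of the list. Its levels were 30.8, 31.8 and 23.5 in pair-fed WT, 80.8, 76.5 and 81.3 in pair-fed Aldh2-/-, 22.3, 36.7, 31.6, 36.5 and 29.4 in ethanol WT and 11.3, 10.7, 10.1 and 13.7 in ethanol Aldh2-/- livers. Again the order of the genotypes turned over between diets with no overlap in either (contrast -2.82 ± 0.22, adjusted p = 1.98e-05).

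Cyp51, the lanosterol demethylase, stood at 5.19, 6.23 and 3.38 in pair-fed WT and 45.8, 36.1 and 27.5 in pair-fed Aldh2-/-. Under ethanol it stood at 11.1, 24.1, 7.07, 12.6 and 11.1 in WT and 4.05, 3.49, 4.02 and 7.91 in Aldh2-/-. The difference was 2.66 under pair-feeding and -1.23 under ethanol, where library 96 of Aldh2-/- lay above library 7 of WT. Its contrast of -3.89 was the most negative of the list. Squalene epoxidase Sqle (-3.65), the sterol dehydrogenase Nsdhl (-3.64), the methyl sterol oxidase Msmo1 (-3.62) and, after Hmgcs1, farnesyl diphosphate synthase Fdps (-3.37) followed. Msmo1 and Sqle were called in opposite directions in the 2 diets as deposited, and Fdps was called as deposited under pair-feeding only (ethanol -0.96, adjusted p = 0.0622). Acat2, the cytosolic thiolase of the first step, had a contrast of -2.18. In library 96 of ethanol Aldh2-/-, Msmo1 (16.5), Fdps (41.0) and Sqle (6.82) were the highest of their group.

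Genes of sterol uptake and control gave a divided picture, with 3 positive and 7 negative among 17 tested (3 and 6 on both scales). The list's median contrast was -0.38 as deposited and -0.17 after rescaling, beside -0.22 and -0.07 over all genes. Only negative members are named here. The SREBP-2 gene Srebf2 itself had a contrast of -1.90 (adjusted p = 0.000209), Insig1, which holds SREBPs in the endoplasmic reticulum, -2.51, and Stard4, a sterol carrier, -2.87.

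**Figure D3:**
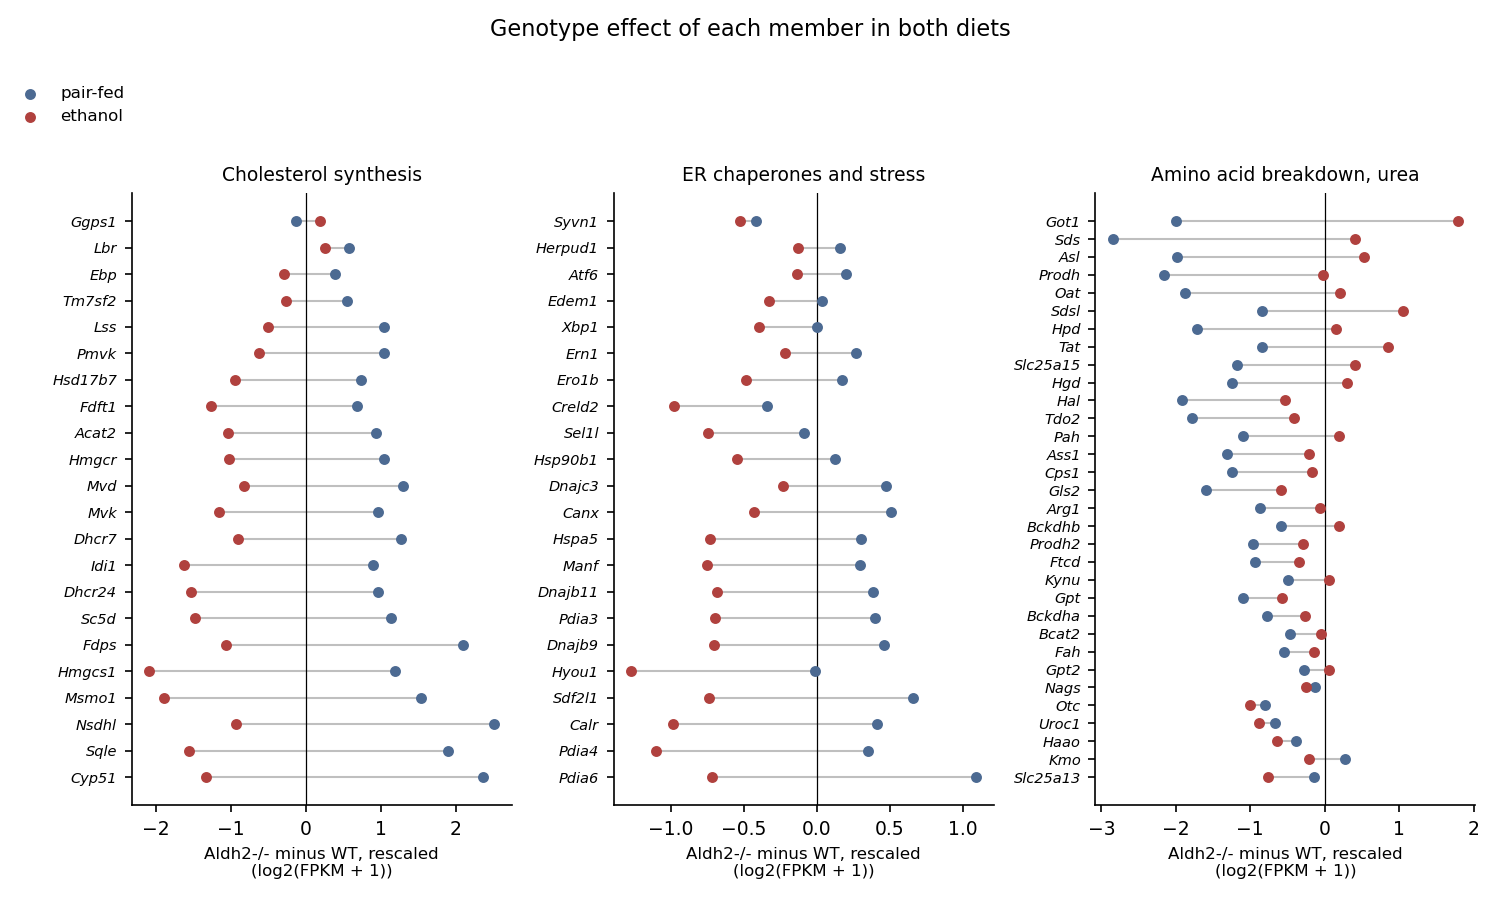
Genotype difference of each tested member (Aldh2-/- minus WT, median-ratio rescaled, log2(FPKM + 1), x axis) under pair-feeding (blue) and ethanol (red) for cholesterol synthesis, endoplasmic reticulum stress and amino acid breakdown genes, sorted by contrast. Most cholesterol members lie above 0 under pair-feeding and below 0 under ethanol, while amino acid genes such as Got1 and Sds lie in the reverse order.

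Fatty acid synthesis genes went the same way, with 17 of 23 negative as deposited and 13 on both scales, a median of -1.35 (-1.14 after rescaling). Pklr, the liver pyruvate kinase that feeds lipogenesis from glucose, stood at 17.1, 16.3 and 23.8 in pair-fed WT, 46.7, 61.9 and 53.2 in pair-fed Aldh2-/-, 20.6, 23.2, 17.8, 23.7 and 22.9 in ethanol WT and 9.40, 17.0, 9.24 and 15 in ethanol Aldh2-/- livers. The groups did not overlap within either diet, and Aldh2-/- livers held both the highest and the lowest level (contrast -2.23, adjusted p = 9.75e-05). The desaturase Fads1 (-2.42), malic enzyme Me1 (-1.94) and fatty acid synthase Fasn (-1.64) had the larger part of their contrast from pair-fed livers. Elovl2, an elongase of polyunsaturated fatty acids (-1.54), and the SREBP-1 gene Srebf1 (-1.67) were called only under ethanol. Scd1, the main desaturase of the liver, was not called (-0.61, 95% confidence interval -1.51 to 0.29, adjusted p = 0.267).

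Among glycerolipid and droplet genes, single members moved far in both directions. G0s2, an inhibitor of the triglyceride lipase ATGL, stood at 195, 145, 247, 269 and 236 in ethanol WT and 8.41, 32.3, 29.9 and 12.4 in ethanol Aldh2-/- livers. In pair-fed livers it stood at 405, 352 and 254 in WT and 215, 129 and 218 in Aldh2-/-. The ethanol Aldh2-/- libraries lay below all others by a wide gap (contrast -2.64, adjusted p = 0.00187). Pnpla2, which encodes ATGL, went the other way (1.17), with 151, 164, 146 and 170.0 FPKM in ethanol Aldh2-/- against 63.7 to 86.1 in ethanol WT. Dgat2, which makes triglyceride (-1.16), Cideb, a droplet and lipoprotein protein (-0.91), and Gpam (-1.26) were negative. Gpat4, another acyltransferase of glycerol phosphate, was positive (1.27) and called in opposite directions in the 2 diets.

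Fatty acid oxidation and ketone genes were negative in 26 of 38 as deposited but in 11 on both scales, with 3 positive on both. Without pair-fed Aldh2-/- library 9, or without pair-fed WT library 20, 17 were negative. Under ethanol 29 were lower in Aldh2-/- and 2 higher (32 and 1 after rescaling), and under pair-feeding 5 were lower and 2 higher (7 and 0 after rescaling). Bdh1, the ketone body dehydrogenase, stood at 76.4, 125 and 66.1 in pair-fed WT, 151, 113 and 151 in pair-fed Aldh2-/-, 57.2, 72.3, 72.6, 113 and 71.1 in ethanol WT and 9.26, 19.2, 18.4 and 12.5 in ethanol Aldh2-/- livers. Only the ethanol Aldh2-/- group stood apart from all others (contrast -2.99, adjusted p = 0.0001). Ppara, the nuclear receptor that drives this programme, had a contrast of -1.37 and a pair-fed difference of 0.04. Acadl, the long-chain acyl-CoA dehydrogenase, had a contrast of -0.98.

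Fgf21 had the most negative contrast of the genes named by the rule. It encodes a hormone secreted by hepatocytes and is a target of PPARalpha and ATF4. It stood at 22.8, 25.1 and 8.18 in pair-fed WT and 119.5, 58.6 and 22.8 in pair-fed Aldh2-/-, and at 4.31, 3.53, 7.84, 8.07 and 7.02 in ethanol WT and 0.137, 0.466, 0.489 and 0.0636 in ethanol Aldh2-/-. All ethanol Aldh2-/- libraries were under 0.5 FPKM, while in pair-fed livers Aldh2-/- library 9 lay below WT library 19, so those groups overlapped. The contrast was -4.07 ± 0.63 (SE; adjusted p = 0.000396), and its pair-fed part was lost on rescaling (1.32, adjusted p = 0.102). Inhbe, the hepatokine activin E, stood at 8.96, 10.9, 11.7, 21.0 and 9.64 in ethanol WT and 0.140, 1.59, 0.419 and 0.109 in ethanol Aldh2-/-, with no overlap, and its contrast was -3.79 (adjusted p = 8.96e-05). Its pair-fed difference of 0.65 was not called.

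Of 25 genes of the ATF4 list, 2 were positive and 8 negative (2 and 7 on both scales). As deposited these shares were near those of all genes, 8.06% and 29.0%. On both scales the shares of all genes were 8.01% and 16.0%. The serine synthesis genes Psph (-2.10) and Psat1 (-1.90) were higher in pair-fed Aldh2-/- livers, Psph at 12.9, 12.1 and 6.71 against 2.50, 3.04 and 1.94 FPKM in WT. Atf4 itself was not called (0.00, 95% confidence interval -0.51 to 0.51) and was higher in Aldh2-/- in both diets as deposited (0.60 and 0.60). The ATF4-C/EBP element TGATGCAA was found on either strand in 5 of 22 list members with a promoter (22.7%) beside 0.70% of tested genes. That of Fgf21 is shown because the gene led the contrast; it lies 139 bases before the start and is read as TTGCATCA on the strand given.
Fgf21 (chr7:45615582-45615669, minus strand, ATF4-C/EBP element): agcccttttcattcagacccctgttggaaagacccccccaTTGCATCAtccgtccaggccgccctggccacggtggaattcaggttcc

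The endoplasmic reticulum stress list holds chaperones, which fold secreted and membrane proteins, and also stress sensors and degradation genes. Its members were negative in 17 of 22 as deposited and 13 on both scales, and none was positive. The median contrast was -1.02 (-0.82 after rescaling). Pdia6, a disulfide isomerase, stood at 45.8, 78.1 and 41.0 in pair-fed WT and 180.4, 141 and 114 in pair-fed Aldh2-/-, and at 53.3, 80.8, 70.4, 63.9 and 58.3 in ethanol WT and 41.4, 44.0, 44.4 and 39.5 in ethanol Aldh2-/-. The genotypes were in opposite order in the 2 diets without overlap (contrast -2.02 ± 0.28, adjusted p = 0.000221). Pdia4 (-1.66), Pdia3 (-1.30) and the BiP cochaperone Dnajb11 (-1.27) had the same pattern as deposited, and their pair-fed part was not called after rescaling. Of the 22 genes, 14 were higher in pair-fed Aldh2-/- as deposited and 1 after rescaling, whereas 14 and 15 were lower under ethanol.

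Many of these genes share an endoplasmic reticulum stress element, CCAAT followed after 9 bases of any kind by CCACG, bound by NF-Y and ATF6. The motif was added after the data had been seen, it holds a CCAAT box, and it was searched on both strands. It was found in 9 of 19 members with a promoter (47.4%), beside 0.19% of 8889 tested genes. The elements of Calr, a calcium-binding chaperone (contrast -1.60), and Dnajc3, which acts with BiP (-0.90), are shown as examples. They are among several that lie outside annotated exons. Both genes were chosen after their values were seen.
Calr (chr8:84847035-84847133, minus strand, element on the other strand): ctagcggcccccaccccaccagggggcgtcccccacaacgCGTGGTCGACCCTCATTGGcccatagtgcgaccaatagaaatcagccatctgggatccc
Dnajc3 (chr14:118937787-118937885, plus strand): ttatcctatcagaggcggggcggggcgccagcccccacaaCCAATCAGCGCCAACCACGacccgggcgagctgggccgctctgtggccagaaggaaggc

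Cytosolic heat shock chaperones were negative in 10 of 18 (9 on both scales), with none positive. Dnaja1, a cochaperone of HSP70, stood at 32.1, 43.0 and 27.3 in pair-fed WT, 38.6, 40.8 and 50.5 in pair-fed Aldh2-/-, 45.4, 55.0, 53.9, 62.2 and 42.7 in ethanol WT and 16.7, 16.8, 16.0 and 20.4 in ethanol Aldh2-/- livers. The ethanol Aldh2-/- group was below all others and the pair-fed groups overlapped (contrast -1.86, adjusted p = 9.30e-05). St13 (-0.99) and Hsp90ab1 (-1.0) were likewise lower under ethanol.

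Amino acid breakdown and urea cycle genes formed the largest positive group of metabolic enzymes, with 13 positive and 1 negative of 32 as deposited and 13 and 0 on both scales. The median contrast was 0.70 (0.91 after rescaling). It came mostly from pair-fed livers, where 18 members were lower in Aldh2-/- (22 after rescaling), and under ethanol 4 were higher and 5 lower. Got1 (chromosome 19, 43499752-43524605), the cytosolic aspartate aminotransferase, stood at 115, 88.4 and 117 in pair-fed WT and 27.4, 26.9 and 46.4 in pair-fed Aldh2-/-. Under ethanol it stood at 330.1, 357, 321, 203 and 293 in WT and 1284, 792, 884 and 1721 in Aldh2-/-. The genotypes did not overlap in either diet and were in opposite order, with a contrast of 3.59 ± 0.37 (SE; adjusted p = 4.39e-05).

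Sds, the serine dehydratase of gluconeogenesis, stood at 671, 399.6 and 721 in pair-fed WT and 66.2, 143 and 105 in pair-fed Aldh2-/-, whereas the ethanol groups overlapped, 816, 688, 714, 364 and 826 in WT and 956, 647, 1325 and 954 in Aldh2-/-. Its contrast of 3.04 thus came from the pair-fed difference (-2.52). Ornithine aminotransferase Oat (1.89) had the same form. Argininosuccinate lyase Asl (2.30) was lower in pair-fed Aldh2-/- (-1.65), and its ethanol difference of 0.64 was called as deposited but not after rescaling (adjusted p = 0.0891). Sdsl, a relative of Sds, was instead called under ethanol (1.17; contrast 1.71). Etnppl, which breaks down phosphoethanolamine, was called in opposite directions (contrast 3.34), with 6.94, 10.5 and 14.3 FPKM in pair-fed and 224, 82.2, 142 and 247 in ethanol Aldh2-/- livers.

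Nnmt, which methylates nicotinamide with S-adenosylmethionine, stood at 52.0, 45.8 and 57.1 in pair-fed WT, 12.2, 21.8 and 19.2 in pair-fed Aldh2-/-, 87.2, 68.9, 55.4, 36.7 and 55.2 in ethanol WT and 230.3, 123, 239.8 and 227 in ethanol Aldh2-/- livers. No genotype overlapped the other within a diet, and the contrast was 3.27 ± 0.38 (SE; adjusted p = 8.14e-05). Periportal genes, which include several of the enzymes above, were positive in 7 and negative in 2 of 23 (7 and 1 on both scales). Pericentral genes were positive in 5 and negative in 4 of 21 (5 and 3 on both).

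**Figure D4:**
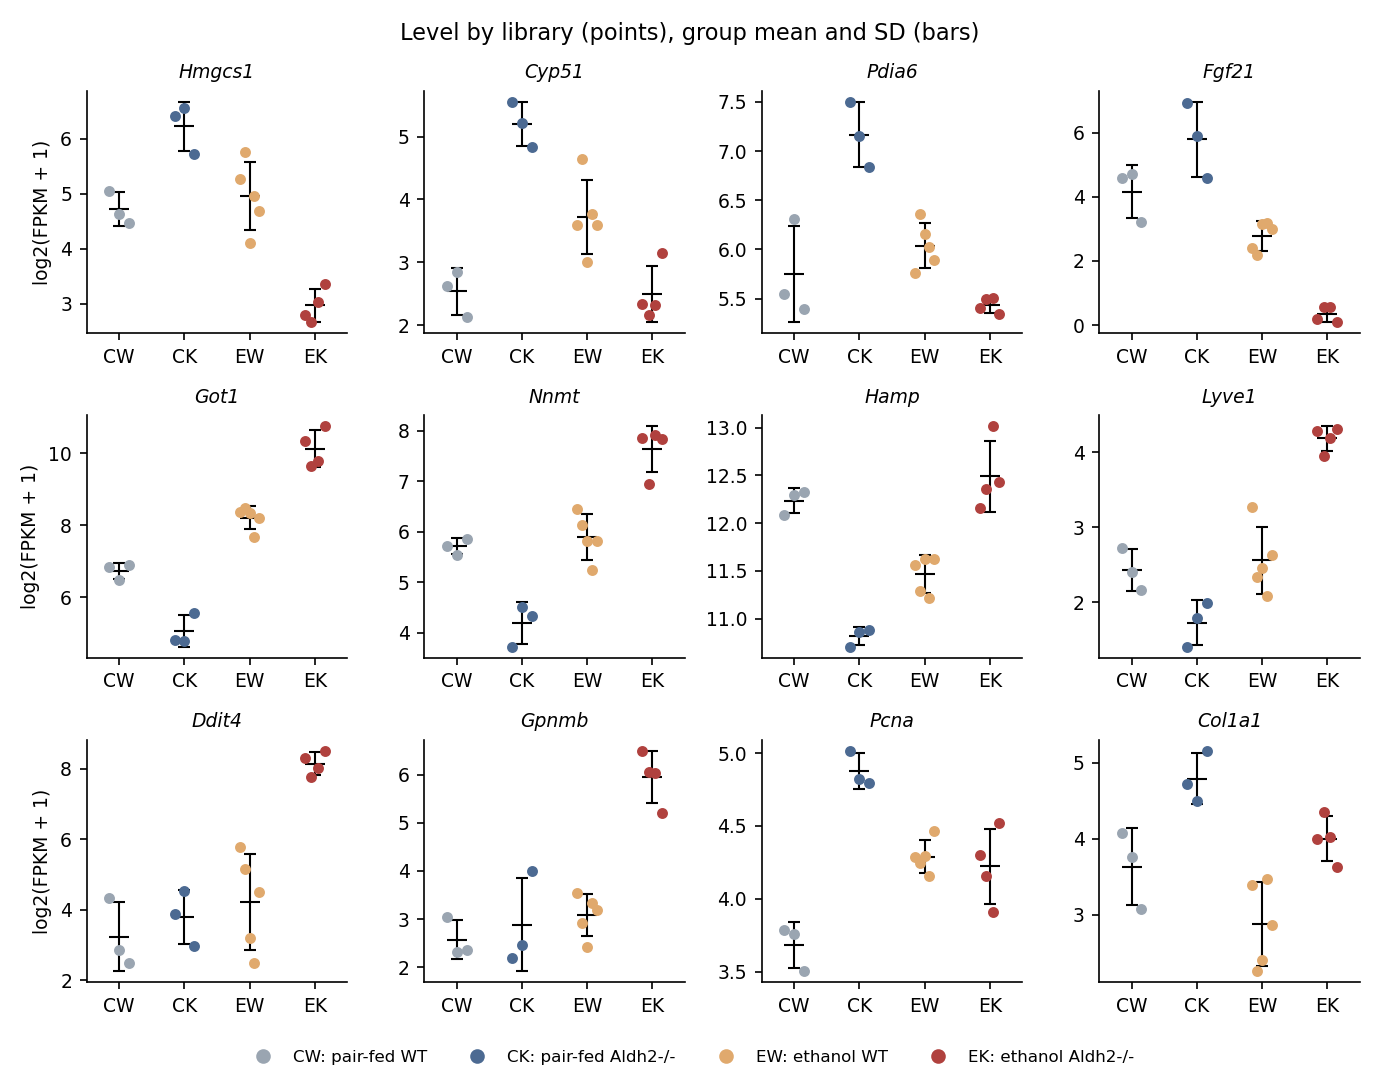
Level of 12 genes in each library (points, log2(FPKM + 1) on the y axis, deposited values) with group mean and SD (bars), for pair-fed WT (CW, n = 3), pair-fed Aldh2-/- (CK, n = 3), ethanol WT (EW, n = 5) and ethanol Aldh2-/- (EK, n = 4). Hmgcs1, Cyp51 and Pdia6 peak in pair-fed Aldh2-/- livers and Got1, Nnmt and Lyve1 in ethanol Aldh2-/- livers, while Col1a1 is higher in Aldh2-/- in both diets.

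A further set was higher in Aldh2-/- livers under ethanol and not called under pair-feeding. It is described here mainly through lists written for genes that respond to fasting, glucocorticoid or stress, with earlier results of these data known. The share of such genes in the whole set was not counted. Glucocorticoid and fasting-responsive genes were positive in 9 of 24 on each scale, and immediate early genes in 8 of 17 on each, with none negative. The first count fell to 4 without pair-fed Aldh2-/- library 9 and to 5 without pair-fed WT library 18, and the second to 5 without either of these or without ethanol libraries 86 (Aldh2-/-), 6 or 11 (WT). Ddit4, an inhibitor of mTORC1, stood at 19.2, 6.20 and 4.63 in pair-fed WT and 13.8, 21.9 and 6.86 in pair-fed Aldh2-/-, and at 53.7, 34.6, 8.11, 4.59 and 21.6 in ethanol WT and 315, 216, 257 and 363 in ethanol Aldh2-/-. All 4 ethanol Aldh2-/- libraries were above the other 11, and ethanol WT libraries varied widely among themselves (contrast 3.36 ± 0.90, adjusted p = 0.0103). Sgk1, a kinase induced by glucocorticoid (1.45), Irs2, the insulin receptor substrate that rises in fasting (1.41), Btg2 (2.34), Fosl2 (0.99) and Junb (1.36) were positive. Igfbp1, a fasting-responsive secreted binding protein, had a contrast of 2.73 (adjusted p = 0.0216) that was lost without pair-fed Aldh2-/- library 9 (adjusted p = 0.0632) or without pair-fed WT library 19 (0.0533).

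Of the 12 most positive contrasts by the naming rule, Sds came from the pair-fed difference, and the others were of this ethanol-only kind or opposite. Sult1e1, the estrogen sulfotransferase, stood at 7.25, 27.5, 38 and 7.75 in ethanol Aldh2-/- livers and at no more than 2.12 in any other library (contrast 3.88, adjusted p = 0.000754). With a pseudocount of 0.1 its contrast moved by more than 1.5 times, to 6.36. Cdc42ep5, a CDC42 effector, stood at 10.4, 8.93, 6.99, 5.18 and 4.57 in ethanol WT and 107, 42.3, 94.7 and 82.1 in ethanol Aldh2-/- livers without overlap (3.55). The secreted glutathione peroxidase Gpx3 stood at 42.3, 14.1, 15, 16.1 and 14.4 and 116, 166, 118 and 80.3 in the same groups (2.98). Eif4ebp3, a repressor of cap-dependent translation (3.23), Fam107a (3.28), the glycogen regulator Ppp1r3g (3.11) and the stress gene Gadd45g (3.04) completed this set. Metallothionein Mt1 had a contrast of 1.98 (adjusted p = 0.0223), which was lost without pair-fed Aldh2-/- library 9 (0.0589) or pair-fed WT library 18 (0.0588).

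Of 18 clock-related genes, 3 were positive and 5 negative (3 and 3 on both scales), beside 8.06% and 29.0% of all genes as deposited. Nfil3, a repressor of D-box genes, stood at 5.66, 5.00, 3.63, 4.86 and 6.15 in ethanol WT and 23.5, 22.9, 18.0 and 34.3 in ethanol Aldh2-/- livers (contrast 2.25). Hlf, a D-box activator, went the reverse way, 6.29, 8.21, 8.36, 8.33 and 8.37 in WT and 1.84, 2.48, 2.14 and 2.54 in Aldh2-/- (contrast -1.52). Neither was called under pair-feeding. The hour of tissue collection is not given in the sources used here.

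Genes of DNA replication were negative in 23 of 28 as deposited (15 on both scales), with none positive. They were higher in pair-fed Aldh2-/- livers, where 26 were called (21 after rescaling), and less uniform under ethanol, with 10 higher and 3 lower. Pcna, the sliding clamp, stood at 12.8, 12.5 and 10.3 in pair-fed WT and 31.4, 27.3 and 26.7 in pair-fed Aldh2-/-, and at 18.5, 17.9, 18.6, 16.8 and 21.1 in ethanol WT and 18.7, 16.8, 14.1 and 22.0 in ethanol Aldh2-/-. Pair-fed Aldh2-/- libraries lay above all others, and the ethanol groups overlapped (contrast -1.26 ± 0.19, adjusted p = 0.000294). The clamp loader subunits Rfc5 (-1.37) and Rfc3 (-1.09) had the same form.

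Mitosis genes were called higher in Aldh2-/- in both diets, and their share called negative was near that of all genes. Their median contrast was lower, -0.77 (-0.57 after rescaling) beside -0.22 and -0.07 over all genes. Over the alternatives it ran from -1.32 to -0.27, and that of all genes from -0.31 to -0.0036. All 32 members tested were called higher under pair-feeding (27 of 31 after rescaling) and 19 under ethanol on each scale, and 9 were negative in the interaction (4 on both scales). The count rested on the setting: 1 was negative with a pseudocount of 0.1, 25 with library quality weights, 27 without pair-fed Aldh2-/- library 9, and 4 or 5 without pair-fed libraries 1 or 2 (Aldh2-/-), 19 or 20 (WT) or ethanol libraries 86, 89 or 96 (Aldh2-/-), 6, 7 or 12 (WT). Cdca3 stood at 14.1, 16.0 and 11.4 in pair-fed WT and 95.7, 85.0 and 52.3 in pair-fed Aldh2-/-, and at 2.16, 1.37, 2.61, 1.12 and 1.30 in ethanol WT and 3.37, 3.96, 7.80 and 3.61 in ethanol Aldh2-/-. Within each diet the genotypes did not overlap, and its contrast of -1.34 (adjusted p = 0.0101) was lost with that pseudocount (-1.07, adjusted p = 0.0667), as was that of the kinetochore gene Nuf2 (-1.32 against -0.86, adjusted p = 0.163). Cyclin B1, Ccnb1, was not called (-0.43, 95% confidence interval -1.45 to 0.59). p53 targets were positive in 6 and negative in 3 of 27, and the p53 target Sesn1 was higher in Aldh2-/- under ethanol (1.83) more than under pair-feeding (0.49; contrast 1.34). Cdkn1a, which encodes the cell cycle inhibitor p21, was not called in the interaction (1.45, adjusted p = 0.0703) but was called without pair-fed WT library 20 (2.02, 0.0115) or ethanol WT library 12 (1.71, 0.0267).

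**Figure D5:**
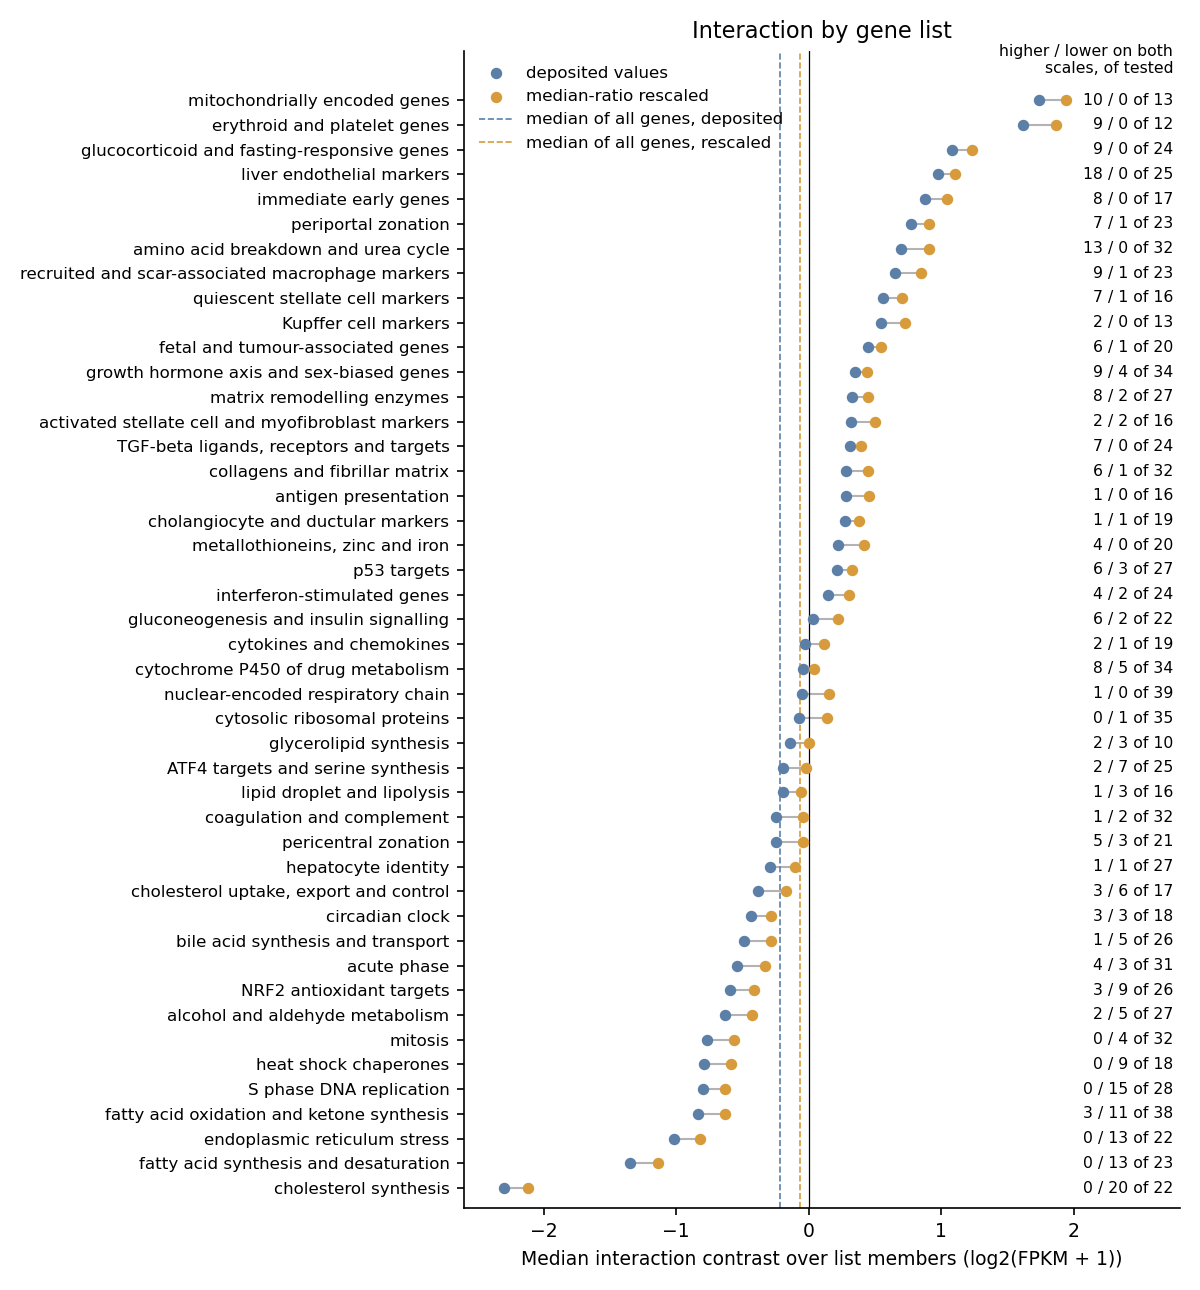
Median interaction contrast (x axis, log2(FPKM + 1)) over the tested members of each list with at least 10 of them, for deposited (blue) and rescaled (orange) values, with dashed lines at the medians of all genes (-0.22 and -0.07) and, on the right, the positive (higher) and negative (lower) genes called on both scales. Cholesterol synthesis lies lowest (-2.30 and -2.12), and endothelial, erythroid and mitochondrially encoded genes lie near the top.

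Markers of cells other than hepatocytes had mostly positive contrasts. Liver endothelial markers were positive in 18 of 25 as deposited and in 21 after rescaling, with none negative, and their median contrast was 0.98 (1.10 after rescaling). Under ethanol 24 of 25 were higher in Aldh2-/-, and under pair-feeding none was higher and 1 was lower. The summed level of the list ran from 115 to 230.1 FPKM in ethanol WT and from 257 to 376 in ethanol Aldh2-/- livers, and from 153 to 201 and 168 to 208 in pair-fed WT and Aldh2-/-. Lyve1, a hyaluronan receptor of sinusoidal and lymphatic endothelium, stood at 5.60, 4.26 and 3.48 in pair-fed WT, 1.64, 2.46 and 2.96 in pair-fed Aldh2-/-, 8.66, 4.06, 4.47, 3.23 and 5.19 in ethanol WT and 18.5, 14.4, 17.3 and 18.8 in ethanol Aldh2-/- livers. The genotypes did not overlap in either diet and were in opposite order (contrast 2.33, adjusted p = 0.000187). Pecam1 (1.17), Flt4, the VEGF receptor of lymphatic and sinusoidal cells (1.07), and Fcgr2b, an Fc receptor of sinusoidal cells (1.00), were called under ethanol only.

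Recruited and scar-associated macrophage markers were positive in 9 and negative in 1 of 23 on both scales, with a median of 0.65 (0.85 after rescaling). Their summed level was 515 to 816 FPKM in ethanol WT and 1124 to 1860.0 in ethanol Aldh2-/-, against 495 to 665 and 986 to 1071 in the pair-fed groups. Both diets thus had higher sums in Aldh2-/-. Gpnmb, a marker of lipid- and scar-associated macrophages, stood at 10.7, 6.59, 4.35, 9.01 and 8.06 in ethanol WT and 89.4, 65.8, 64.7 and 35.8 in ethanol Aldh2-/-, while the pair-fed groups overlapped (7.26, 3.98 and 4.11 and 3.56, 4.52 and 14.9). Its contrast was 2.56 ± 0.54 (SE; adjusted p = 0.00282). Cd68 (1.52) and the macrophage elastase Mmp12 (1.88) were called under ethanol only. Of 13 Kupffer cell markers, 2 were positive and 1 negative as deposited, and 2 were positive on both scales. Adgre1, the pan-macrophage marker F4/80, was not called (0.37, adjusted p = 0.241). Erythroid and platelet genes were positive in 10 of 12 (9 on both scales), for example Hbb-bt, a beta-globin (2.94), and the integrin Itgb3 (1.51). Their summed level ran from 797 to 2434 FPKM in ethanol Aldh2-/- and from 200.2 to 629 in ethanol WT livers. In pair-fed livers it ran from 642 to 900.3 in WT, overlapping ethanol Aldh2-/-, and from 325 to 790.1 in Aldh2-/-. The part of blood in the tissue was not tested.

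Quiescent stellate cell markers were positive in 7 and negative in 1 of 16 on each scale. Hand2, a transcription factor of stellate cells, stood at 5.83, 4.62 and 4.28 in pair-fed WT, 3.98, 4.49 and 4.94 in pair-fed Aldh2-/-, 7.28, 3.49, 3.99, 2.99 and 3.43 in ethanol WT and 13.7, 19.8, 10.9 and 8.99 in ethanol Aldh2-/- livers. Ethanol Aldh2-/- libraries lay above all others, and the pair-fed groups overlapped (contrast 1.56, adjusted p = 0.0032). Lrat, which stores retinol as ester (1.24), was alike. Activated stellate cell and myofibroblast markers were divided, 2 positive and 2 negative of 16 (4 and 2 after rescaling). Their median contrast was 0.32 (0.50 after rescaling). Of this list, Pdgfra (0.93) was positive and like Hand2 and Lrat. The contractile genes Tagln and Tpm1 were higher in Aldh2-/- livers under pair-feeding only. Tagln stood at 10.3, 17.6 and 7.30 and 39.8, 36.4 and 22.2 in pair-fed WT and Aldh2-/-, and at 7.64, 5.74, 6.40, 7.00 and 4.47 and 6.97, 7.90, 6.74 and 4.71 in ethanol WT and Aldh2-/-. Its contrast was -1.39 (adjusted p = 0.00793) and that of Tpm1 was -0.94. Smooth muscle actin Acta2 was not called (-1.13, adjusted p = 0.0795), but was called without pair-fed Aldh2-/- library 9 (-1.66, 0.00528) or pair-fed WT library 19 (-1.45, 0.0340).

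Of 32 collagen and fibrillar matrix genes, 6 were positive and 2 negative as deposited (6 and 1 on both scales), beside 8.06% and 29.0% of all genes. After rescaling 10 were positive, as without ethanol WT library 5 or with library quality weights, and 12 after rescaling without ethanol libraries 5 (WT) and 90 (Aldh2-/-), a setting chosen after seeing the data. Col1a1, the main collagen of the scar, stood at 15.8, 12.5 and 7.43 in pair-fed WT and 25.3, 21.6 and 34.7 in pair-fed Aldh2-/-, and at 9.49, 3.79, 4.32, 10.1 and 6.33 in ethanol WT and 15, 19.4, 15.3 and 11.4 in ethanol Aldh2-/-. Aldh2-/- libraries were above WT in each diet without overlap. The differences of 1.12 and 1.16 were called as deposited (under pair-feeding not after rescaling), and the contrast was -0.04 (95% confidence interval -0.93 to 0.85, adjusted p = 0.951). The interval spans more than 1 log2 unit, so a moderate difference between diets was not detectable. Col3a1 (-0.28) and Timp1 (-0.77) were not called either.

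Other matrix genes were positive. Mmp2, a gelatinase of stellate cells, stood at 1.95, 2.13 and 1.47 in pair-fed WT, 1.05, 0.964 and 3.14 in pair-fed Aldh2-/-, 5.37, 2.91, 1.5, 4.93 and 3.55 in ethanol WT and 21.2, 23.9, 14.9 and 18.1 in ethanol Aldh2-/- livers, with the ethanol Aldh2-/- libraries above all others (contrast 2.35, adjusted p = 0.000932). The protease inhibitor Timp3 (1.36), thrombospondin 2, Thbs2 (1.40), and the proteoglycans Dcn (1.30) and Bgn (1.29) had the same direction, and Mmp19 the reverse (-1.38). TGF-beta ligands, receptors and targets were positive in 7 of 24 on both scales and none was negative. Bmp6, a BMP ligand made by endothelial cells (1.09), and Id3, a BMP target (1.44), were among them, while Tgfb1 itself (0.66, adjusted p = 0.045) lost its call in 11 of 15 fits that left out 1 library (adjusted p up to 0.105). Of 19 cholangiocyte and ductular markers, 1 was positive and 1 negative, and of 20 fetal and tumour-associated genes 6 and 1, the same on both scales. The positive members include the goblet cell gene Tff3 (2.30), of both lists, and the trypsin inhibitor Spink1 (2.29), of the second. Both were higher in Aldh2-/- in both diets as deposited and by more under ethanol.

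Hamp, which encodes hepcidin, the hormone that blocks iron export and is raised by BMP6 and inflammation, stood at 4358, 5019 and 5133 in pair-fed WT and 1669, 1858 and 1888 in pair-fed Aldh2-/-. Under ethanol it stood at 3031, 2499, 3161, 2377 and 3162 in WT and 4558, 5259, 8282 and 5508 in Aldh2-/-. The genotypes were in opposite order in the 2 diets without overlap, and the contrast was 2.44 ± 0.25 (SE; adjusted p = 4.39e-05; 2.65 after rescaling). Of 20 metal-handling genes, 4 were positive and 1 negative (4 and 0 on both scales).

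Acute phase genes were negative in 10 and positive in 4 of 31 as deposited (all genes 29.0% and 8.06%). On both scales they were negative in 3 and positive in 4 (all genes 16.0% and 8.01%). The negative count was 19 with library quality weights, 4 without pair-fed Aldh2-/- library 1 or pair-fed WT library 20, and 5 or 6 without library 2 (pair-fed Aldh2-/-), 18 (pair-fed WT), 6, 11 or 12 (ethanol WT). Apcs, serum amyloid P, stood at 706, 692 and 375 in pair-fed Aldh2-/- and 176, 136 and 125 in pair-fed WT, while the ethanol groups overlapped (273, 165, 154, 169.7 and 188 in WT and 175, 360.5, 173 and 109 in Aldh2-/-). Its contrast was -1.97 (adjusted p = 0.00439), and that of Itih4 -1.45. The serpin Serpina3k was positive (1.62). Saa1, which rises most steeply in inflammation, had a contrast of -3.47 (adjusted p = 0.0459) that was lost on rescaling (0.0726) and in 11 of 15 fits without 1 library (adjusted p up to 0.141). The summed level of 17 neutrophil markers was 422 to 1043 FPKM in pair-fed Aldh2-/- and 70.2 to 189.6 in pair-fed WT livers. In the ethanol groups it was 169.8 to 579 in Aldh2-/- and 44.6 to 168 in WT. That list includes Lcn2, which is on the acute phase list too. The neutrophil genes S100a8 and S100a9 reached at most 36.8 and 50.1 FPKM in any library. The sum is thus not a measure of neutrophils alone, and its part in these values was not tested. Lcn2, a member of both lists, was higher in Aldh2-/- in both diets and not called in the interaction (-1.22, adjusted p = 0.207). It was called with library quality weights (-1.67, adjusted p = 0.0396).

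Mitochondrially encoded genes had the largest positive median of the lists with at least 10 members tested, 1.74 (1.94 after rescaling), with 10 of 13 positive. COX1, a subunit of complex IV, stood at 33977, 31828 and 52916 in pair-fed WT and 18990.0, 21049 and 12554 in pair-fed Aldh2-/-, and at 20190.0, 11731, 13148, 10887 and 11644 in ethanol WT and 15527, 18083, 35445 and 14772 in ethanol Aldh2-/-. Pair-fed WT libraries lay above pair-fed Aldh2-/- ones, and the ethanol groups overlapped (contrast 1.74, adjusted p = 0.00649). COX3 (2.60) and ND5 (1.95) had the same form, and 10 members were called under pair-feeding and none under ethanol. The nuclear-encoded subunits of the same complexes had 1 positive and 4 negative of 39 (1 and 0 on both scales), and cytosolic ribosomal proteins 0 and 2 of 35. With mitochondrially encoded genes removed and each library set to a common sum, 3684 genes were called, 1032 positive and 2652 negative.

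Alcohol and aldehyde enzymes were negative in 11 and positive in 2 of 27 (5 and 2 on both scales), and negative in 7 without pair-fed WT library 20. Over all genes 29.0% were negative and 8.06% positive as deposited, and 16.0% and 8.01% on both scales. Adh4, a hepatic alcohol dehydrogenase, had a contrast of -1.78, with 6.90, 6.10, 8.13 and 8.55 FPKM in ethanol Aldh2-/- livers and 14.1 to 22.6 in ethanol WT. Adh1, the main alcohol dehydrogenase, had a contrast of -0.83 (adjusted p = 0.0137) that was lost on rescaling (0.0857). Aldh1a7, a cytosolic aldehyde dehydrogenase (-1.90), and Aldh18a1, of proline synthesis (-1.13), were negative. Cyp2e1, which oxidises ethanol and bioactivates CCl4, stood at 1035, 1555 and 851 in pair-fed WT and 141, 202 and 553 in pair-fed Aldh2-/-, and at 1952, 2069, 2185, 3050.5 and 2068 in ethanol WT and 1426, 1012, 1890.0 and 2098 in ethanol Aldh2-/-. The pair-fed groups did not overlap, and the ethanol groups overlapped through library 96. Its contrast of 1.61 (adjusted p = 0.0246) was lost without pair-fed Aldh2-/- library 1 (0.0784) or 2 (0.0592) or pair-fed WT library 19 (0.0633), and without ethanol libraries 5 (WT) and 90 (Aldh2-/-) together (0.0554). Among 34 drug-metabolising P450 genes, 8 were positive and 7 negative (8 and 5 on both scales). The positive count was 2 to 5 without libraries 1 or 2 (pair-fed Aldh2-/-), 18 or 20 (pair-fed WT), 86 or 96 (ethanol Aldh2-/-) or 11 (ethanol WT). Cyp2c54 (1.56) was lower in Aldh2-/- in both diets and by more under pair-feeding, and Cyp2j5 (-1.36) and Cyp2d26 (-0.91) were called lower under ethanol only. Of the 30 genes of a panel that the naming rule took whatever their result, 17 were called as deposited and 15 on both scales, and Alb (-0.37), Cyp7a1, the first enzyme of bile acid synthesis (-0.60), and Gdf15 (1.13) were among the 13 not called.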

How the data were processed

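Bulk RNA-seq of liver gave 15 libraries. Extraction used TRIzol and sequencing gave paired reads, per the labels' protocols. Per the submitters' processing notes, fastp, HISAT2, HTSeq and the mouse build mm10 were used; versions and how FPKM was computed are not given in the sources used here. The authors deposited FPKM values, 1 table per diet, and both were joined by gene symbol. Mitochondrially encoded genes were matched by their RefSeq symbols.

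From these values, log2(FPKM + 1) was fitted with limma 3.58.1 (R 4.3.3, lmFit and eBayes with trend) for all 4 groups together, since both diets then share 1 estimate of the spread, and no covariate. Genes under a mean of 0.5 FPKM were left out, and p-values were adjusted over all tested genes by Benjamini-Hochberg. A difference on this scale understates the change of low genes. The members and lists were chosen with earlier results of these data known. Named genes were Aldh2, the 12 largest contrasts in each direction among genes called on both scales whose highest group averaged at least 2 FPKM (leaving out placeholder symbols and pseudogenes), the 8 largest with opposite differences called in both diets, up to 4 members with the smallest p of each list with a called member, and a panel of 30 genes taken whatever their result. The rule took 198 genes, of which the text uses a part, and some are not reported here. Aldh2 was also tested by exact permutation within each diet.

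On simulated data of 11157 genes for this contrast, 62 of 100 genes changed by 1 log2 unit and 5 of 100 changed by 0.5 were recovered. Among 69 genes called, 2 were unchanged. The simulation changed ethanol Aldh2-/- values alone, with independent normal noise, and far fewer genes than were called in the data. Its shares therefore do not carry over to the real fit. Alternatives were other scalings, pseudocount, filters, variance options, a replicate block and leaving out libraries. Libraries are named here by the number in their title. The sample descriptions also give each a replicate number from 1 to 5 within its group, which was used for the block. Libraries with the same description number deviated with correlations of -0.33 to 0.24 (19 pairs), so the numbers were not taken to pair them.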

Additional observations from a re-analysis of the deposited data

Results flagged for a closer look

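The genotype effect differed between diets for 4134 genes by the interaction term itself, as described above. Among 268 gene and group combinations of 4 or 5 libraries, 16 held a library far from the rest of its group, and chance flags about 1 in 20.

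Library 5 of ethanol WT was the library concerned in 9 of the 16. It was highest for Sult1e1 (2.12 FPKM), Gpx3 (42.3), Dcn (161), Lrat (3.69), Tpm1 (10.3), ND5 (4239) and Lcn2 (129), and lowest for Srebf1 (16.3) and Hlf (6.29). The other 4 libraries of that group lay, for example, between 14.1 and 16.1 for Gpx3 and between 73.5 and 84.0 for Dcn. In library 11 of ethanol WT, Cyp2e1 was highest (3050) and Sds lowest (364).

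In ethanol Aldh2-/- livers, library 89 was lowest for Nnmt (123) and Tff3 (18.3) and highest for Igtp (4.76). Library 96 was highest for Acat2 (8.88) and library 86 for Dnajb11 (17.4). What sets these libraries apart was not tested.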

How the results depend on the processing

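Of 121 genes of the text called as deposited, 110 kept their call under all 27 alternatives and none changed sign. The number of genes called ranged from 3075 (quantile normalization) to 5554 (library quality weights), and from 3135 to 4644 with 1 library left out. Positive calls numbered 1684 with quality weights, 555 at a mean of at least 2 FPKM, 1379 after median-ratio rescaling and 1399 after quantile normalization, and 627 to 1185 with 1 library left out. Negative calls numbered 1781 after median-ratio and 1676 after quantile normalization, and 2477 to 3471 with 1 library left out. Opposite effects numbered 1079 with quality weights, 191 after median-ratio rescaling, 210 after quantile normalization, 429 at a common sum without mitochondrially encoded genes, and 346 to 815 with 1 library left out (346 without pair-fed WT library 20, 374 and 426 without pair-fed Aldh2-/- libraries 1 and 9). Median-ratio rescaling without ethanol WT library 5 and ethanol Aldh2-/- library 90, chosen after seeing the data, gave 1537 positive, 2048 negative and 260 opposite. The cause was not tested. The replicate block, which in effect drops ethanol WT library 12, the only library with the description number 5, gave 3658 calls, 790 positive and 2868 negative. Its calls differed for Saa1 (adjusted p = 0.0807), Tgfb1 (0.0865) and Cdkn1a (0.0415).

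Values of uncalled genes changed sign. Ccnb1 was 0.44 with a pseudocount of 0.1. Col1a1 was 0.069 with quality weights, 0.16 after median-ratio rescaling (0.27 without libraries 5 and 90), 0.012 with a pseudocount of 0.1, 0.30 after quantile normalization, 0.081 without libraries 5 and 90, 0.047 at a common sum without mitochondrially encoded genes, and -0.26 to 0.24 with 1 library left out. Cyp7a1 was 0.12 with quality weights and -1.15 to 0.33 with 1 left out, Col3a1 0.067 after quantile normalization and -0.62 to 0.011, and Atf4 -0.13 at a common sum, -0.0003 without libraries 5 and 90 and -0.17 to 0.12. With no filter on low values, calls were lost for Saa1 (adjusted p = 0.116), Tgfb1 (0.0938), Cyp2e1 (0.0687), Mt1 (0.0643), Igfbp1 (0.0638) and COX1 (0.0582). Gdf15 was called after rescaling (1.32, adjusted p = 0.0443). COX1 lost its call after quantile normalization (adjusted p = 0.0560), and Dnajc3 likewise (0.0536). With total counts not analysed here, low genes cannot be weighed by depth.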

Other observations

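NRF2 targets, which detoxify electrophiles, were negative in 10 and positive in 3 of 26 as deposited (9 and 3 on both scales). The glutathione transferase Gstm4 had a contrast of -1.89 (adjusted p = 4.39e-05), with 12.4, 15.5 and 12.9 FPKM in pair-fed WT, 30.5, 21.9 and 21.1 in pair-fed Aldh2-/-, 20.4, 21.3, 19.8, 22.8 and 23.2 in ethanol WT and 8.08, 11.5, 8.57 and 10.1 in ethanol Aldh2-/- livers. Ugdh, which makes UDP-glucuronate, had -1.56, the glutathione synthesis enzyme Gclc -1.72 and the peroxiredoxin Prdx1 -1.21. Interferon-stimulated genes were positive in 4 and negative in 4 of 24 (4 and 2 on both scales). The contrast was -1.39 for Igtp, 1.33 for Usp18 and 1.59 for Irf7.

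Growth hormone axis and sex-biased genes were positive in 9 and negative in 5 of 34 (9 and 4 on both scales). Socs2, a feedback inhibitor of growth hormone signalling, had a contrast of 1.61 (adjusted p = 0.00223), Igfbp3, a carrier of IGF-1, 2.37, and Cyp17a1, a steroid hydroxylase, 2.33. All mice were male.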
